A study of Mus musculus with 2 samples.

Results

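The Aldh1a2 Retnla cells are a small group of adrenal immune cells, chosen here by their own UMI counts (counts of distinct captured mRNA molecules). A barcode was a member when it held at least 5 UMIs of Retnla, at least 3 UMIs of Fn1, Ear2, Aldh1a2 and Lyz1 together, at most 2 UMIs of Lyve1, Folr2, Cbr2 and Fcna together, and none of Cd79a or Cd3e. The rule found 185 cells among the 6319 that passed the filters, 84 of 3817 in the female and 101 of 2502 in the male library. Since these UMI counts chose the members, every comparison of them with other cells is given as a description with no test, and intervals throughout are 95% intervals that cover counting error only.

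The study sequenced CD45+ immune cells of adrenal glands from 7-week-old C57BL/6 mice, 1 library from females and 1 from males, with droplet-based 3' chemistry. The animals carried no transgene or treatment that the labels name. Each sex is 1 library, so a difference between the libraries cannot be told apart from a difference between preparations. The female library held 3963 barcodes with a median of 3432 UMIs and the male library 2685 barcodes with a median of 2777 UMIs. The libraries shared 2 barcodes, none of them in the Aldh1a2 Retnla cells.

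Retnla encodes a small secreted protein that macrophages make in response to interleukin 4 and interleukin 13. Aldh1a2 encodes the retinaldehyde dehydrogenase that makes retinoic acid from retinal. Macrophages with Retnla, Cd226, Ccr2 and MHC class II are known from the serous cavities, where they depend on the transcription factor Irf4, arise from monocytes and differ from the resident Gata6-dependent macrophages.

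Retnla UMIs varied widely from cell to cell. The female cells held 6 to 278 Retnla UMIs with a median of 38.5, and the male cells 6 to 475 with a median of 50. Fn1, which encodes the matrix protein fibronectin, was detected in 95.2 and 98% of the female and male cells, with medians of 11.5 and 16 UMIs. Lyz1, a lysozyme that digests bacterial walls, was detected in 72.6 and 85.1% of the cells, with medians of 7.5 and 14 UMIs. Most members thus carried Retnla together with Fn1 and Lyz1 in both libraries, which the rule favoured because it used these genes. Ear2, a ribonuclease of the eosinophil-associated family, was detected in 76.2 and 76.2% of the cells with a median of 2 UMIs in both libraries. Aldh1a2 was detected in only 48.8 and 38.6% of the cells, with at most 6 UMIs in a cell, so most members carried no Aldh1a2 UMI at this depth. The per-cell plot of UMIs shows the 2 libraries side by side.

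**Figure D1:**
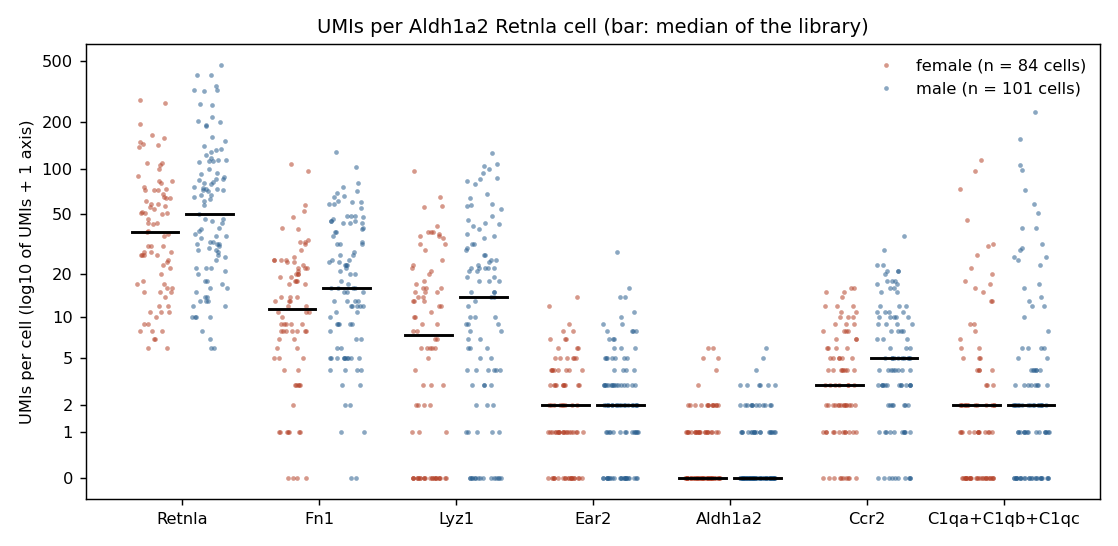
UMIs per Aldh1a2 Retnla cell for the 5 genes the rule requires, for Ccr2 and for the 3 C1q genes together, on a log10 axis of UMIs + 1. Each point is 1 cell, 84 female and 101 male, and black bars are medians. Retnla lies at 6 or above in every cell, where the rule asked for at least 5, while Aldh1a2 has a median of 0 in both libraries.

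The gate was set away from the bulk of the members. Of the cells that met all other conditions, 2 female and 2 male cells held 5 or 6 Retnla UMIs, just inside the limit, and 5 female and 2 male cells held 3 or 4, just outside it. Of the cells that met the Retnla and exclusion conditions, 5 female and 4 male cells had 3 or 4 UMIs of the 4 companion genes, 7 and 8 had 1 or 2, and 8 and 16 had none. A further 7 female and 9 male cells met the Retnla and companion conditions but held more than 2 UMIs of the Lyve1 group, and each of these 16 held at least 5 C1q UMIs.

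Lymphocytes were used to gauge free RNA, which droplets take up from other cells. Their rules allowed at most 2 UMIs of the C1q genes and 2 of Lyz2 a cell, so droplets rich in myeloid RNA were left out and the level given may be too low. Retnla measured 25.5 and 59.3 CPM (UMIs of a gene summed over cells and scaled to an equal total for every class) in the female and male B cells and 15.3 and 46.3 CPM in the T cells. After each cell was thinned to 1000 UMIs, 1.62 and 7.85% of the female and male B cells had a Retnla UMI, against 97.5 and 96.9% of the Aldh1a2 Retnla cells. Unthinned, 5.14 and 14.9% of B cells had one, at median depths of 2302 and 1803 UMIs against 3331.5 and 4134 UMIs in the Aldh1a2 Retnla cells. Lyz1 measured 1.62 and 11.3 CPM in B cells and Aldh1a2 0.542 and 1.41 CPM. The gate asked for these genes, so their height above this background is given by construction. The thinned Aldh1a2 share was 30.4 and 13.4% in the Aldh1a2 Retnla cells and 0 and 0% in B cells.

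In GRCm38 with its GENCODE annotation, each of the 5 genes lies on its own chromosome, with Retnla at chr16:48842551-48844461, Fn1 at chr1:71585520-71653200, Ear2 at chr14:44102654-44103534, Aldh1a2 at chr9:71215789-71296243 and Lyz1 at chr10:117287797-117292868. Near-identical copies touch 2 of them. Of the 55-base words in the last 500 bases of the longest protein-coding transcript, 13.9% of those of Lyz1 occur also in Lyz2, and 34.1% of those of Ear2 occur also in Ear1, Ear6, Ear10 or 2 pseudogenes. Reads from these stretches cannot be told apart at the 55-base read length, so the levels of Lyz1 and Ear2 carry that uncertainty. No word of Retnla, Fn1 or Aldh1a2 was shared. Ear6 and Ear10 had no UMI in the Aldh1a2 Retnla cells and Ear1 had 0 and 2 UMIs in the female and male library.

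The promoters of 4 gate genes are shown because the rule chose the members by these genes and because Retnla is a textbook target of STAT6 and C/EBP factors. RefSeq windows of 300 bases (GRCm38.p6, 250 before to 50 after the start site) were searched on both strands for the STAT6 letters TTCNNNNGAA and the C/EBP letters TTGCNNAA, printed here in capitals.
Retnla, chr16:48842359-48842658, plus strand: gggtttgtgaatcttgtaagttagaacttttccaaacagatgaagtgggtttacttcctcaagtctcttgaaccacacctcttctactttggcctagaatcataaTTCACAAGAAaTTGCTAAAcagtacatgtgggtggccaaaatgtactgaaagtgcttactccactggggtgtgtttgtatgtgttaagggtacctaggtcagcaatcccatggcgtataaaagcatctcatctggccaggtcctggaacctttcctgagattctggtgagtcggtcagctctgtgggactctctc
Aldh1a2, chr9:71215539-71215838, plus strand: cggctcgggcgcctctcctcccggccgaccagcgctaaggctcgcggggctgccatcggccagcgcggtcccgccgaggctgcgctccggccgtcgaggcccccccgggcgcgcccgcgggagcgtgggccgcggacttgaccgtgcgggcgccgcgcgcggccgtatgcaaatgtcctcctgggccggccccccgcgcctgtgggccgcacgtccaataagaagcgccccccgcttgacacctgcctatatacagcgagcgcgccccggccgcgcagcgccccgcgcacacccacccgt
Lyz1, chr10:117292819-117293118, minus strand: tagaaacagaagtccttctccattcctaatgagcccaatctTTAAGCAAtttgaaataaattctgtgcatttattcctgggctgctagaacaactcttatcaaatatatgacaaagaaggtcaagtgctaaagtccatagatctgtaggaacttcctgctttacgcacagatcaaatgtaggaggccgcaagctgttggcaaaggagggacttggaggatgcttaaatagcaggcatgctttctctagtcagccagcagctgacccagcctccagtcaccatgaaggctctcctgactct
Ear2, chr14:44102404-44102703, plus strand: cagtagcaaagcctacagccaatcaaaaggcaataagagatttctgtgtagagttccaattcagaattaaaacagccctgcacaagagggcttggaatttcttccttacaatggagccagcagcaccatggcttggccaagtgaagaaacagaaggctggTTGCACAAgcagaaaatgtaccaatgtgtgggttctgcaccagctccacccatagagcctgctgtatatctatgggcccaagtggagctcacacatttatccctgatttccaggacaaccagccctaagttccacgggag
The Retnla window held both motifs, the STAT6 letters at positions -145 to -136 and the C/EBP letters at -134 to -127 relative to the start site, with 1 base between them. Lyz1 (minus strand, -209 to -202) and Ear2 (-90 to -83) each held the C/EBP letters and no STAT6 letters, and Aldh1a2 held neither. STAT6 letters occurred in 6.95% and C/EBP letters in 10.8% of all 32851 windows. AGGTCA, the core letters that retinoic acid and other nuclear receptors read, occurred in 16.3% of all windows, and GAGGAA, part of the PU.1 site, in 28.3%. AGGTCA was present in the Retnla window (-50 to -45) and the Lyz1 window (-133 to -128), and GAGGAA in the Retnla window (-196 to -191). These are matches of letters, not measured sites.

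Macrophage genes were present in the Aldh1a2 Retnla cells, but several that define tissue macrophages were low. All 12 macrophage markers listed had UMIs, and 9 of them in the female and 10 in the male library were found in at least 20% of the cells. Their summed level was 12490 and 14062 CPM, against 23107 and 22723 CPM in the C1q macrophages. The C1q macrophages are the cells outside the gate with at least 5 UMIs of C1qa, C1qb and C1qc. Classical monocytes had 22553 and 19669 CPM of the same markers, so this sum does not separate macrophages from monocytes. Adgre1, which encodes F4/80, measured 138 CPM (102 to 183) in the female and 197 CPM (161 to 240.0) in the male library, against 357 and 339 CPM in C1q macrophages. Csf1r, the receptor for the macrophage growth factor CSF-1, measured 242 and 341 CPM against 748 and 895 CPM. Both were therefore present at a reduced level. Mertk, a receptor for apoptotic cells, measured 14.4 and 23.7 CPM against 96.4 and 83.3 CPM and was found in 5.95 and 9.90% of the cells. Fcgr1, which encodes CD64, measured 20.2 and 19.7 CPM against 166 and 198 CPM and was found in 4.76 and 6.93%. Itgam, which encodes CD11b, went the other way, with 392 and 375 CPM against 80.5 and 72.5 CPM.

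Dendritic cell, eosinophil and classical monocyte identities were checked the same way. Of 10 markers of type 2 dendritic cells, 9 had UMIs in the female and 10 in the male members, 3 and 4 of them in at least 20% of the cells. Their summed level was 882 and 858 CPM, against 493 and 819 CPM in C1q macrophages. It was 139 and 177 CPM in monocytes and 2897 and 3681 CPM in Cd209a dendritic cells. Lyve1-high macrophages, described below, had 1891 and 2395 CPM and B cells 648 and 602 CPM. All cells outside the gate together had 896 and 937 CPM, so this level was not particular to the members. Of 6 markers of type 1 dendritic cells, 5 had UMIs in the female and 6 in the male members. In each library 2 of them were found in at least 20% of the cells. Their summed level was 856 and 996 CPM, above that of every other class. It was 416 and 541 CPM in C1q macrophages, 637 and 662 CPM in monocytes and 815 and 682 CPM in Cd209a dendritic cells. What this level marks was not tested. Flt3, the growth factor receptor of dendritic cells, had 0 UMIs in the female and 1 in the male Aldh1a2 Retnla cells, and measured 98.5 and 104 CPM in the Cd209a dendritic cells. At such a level many cells that express Flt3 hold no UMI of it, so its absence from single cells was not read as lack of expression. Of 7 eosinophil markers 1 had any UMI in each library. All 10 classical monocyte markers had UMIs in both libraries, 3 of them in at least 20% of the cells. Their summed level was 3272 and 3952 CPM, against 1340.1 and 1093 CPM in C1q macrophages and 16588 and 15190 CPM in monocytes. It was 3427 and 3558 CPM in Lyve1-high macrophages and 2535 and 2153 CPM in B cells. This sum was therefore not particular to the members. Ly6c2 and Chil3 together reached 3 UMIs in 1 female and 2 male members, and Vcan measured 2.88 and 1.97 CPM. At least 2 UMIs of Cd209a were present in 4 and 9 members. Mertk and Fcgr1 had UMIs in few cells, which at this depth does not show that the other cells lacked them. C1qa and Mrc1, the mannose receptor, were higher than in classical monocytes in both libraries. C1qa measured 611 and 996 CPM against 33.8 and 52.8 CPM in monocytes, which were limited to at most 2 C1q UMIs a cell by their own rule, and Mrc1 346 and 385 CPM against 37.3 and 31.1 CPM. Adgre1 measured 138 and 197 CPM against 107 and 106 CPM in monocytes and Itgam 392 and 375 CPM against 245 and 264 CPM. The levels in monocytes were above those in the members for Csf1r, at 674 and 690.0 CPM against 242 and 341 CPM, and for Lyz2, at 20728 and 17851 CPM against 9316 and 10074 CPM. The cells are called here by genes of their rule, Aldh1a2 and Retnla, although Aldh1a2 was the lowest of these genes in UMIs.

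Natural killer (NK) genes were detected in some members. More than 2 UMIs of Nkg7, Gzma and Ncr1 together were present in 9 of 84 female (10.7%) and 3 of 101 male (2.97%) members, and in 82 of 925 (8.86%) and 29 of 868 (3.34%) C1q macrophages. All 7 NK markers had UMIs in both libraries, with summed levels of 1571 and 608 CPM against 984 and 337 CPM in C1q macrophages. The B cells, which should lack these genes, had 1061 and 243 CPM of the same markers. The study set aside a cluster that it took for doublets of NK cells and macrophages, and no such cluster was removed here. Named genes whose 2-fold call turned on these cells are given with and without them below. The spread of single genes and the genes with opposite directions in the libraries are given only with them. Whether they are doublets or carry free RNA was not tested.

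The Aldh1a2 Retnla cells made up 2.20% (1.76 to 2.72%) of the female and 4.04% (3.30 to 4.88%) of the male cells, a difference of -1.84 percentage points (-2.78 to -0.964) for female minus male. Among macrophages, taken as the Aldh1a2 Retnla cells plus the C1q macrophages, they were 84 of 1009 cells (8.33%, 6.69 to 10.2%) in the female and 101 of 969 (10.4%, 8.57 to 12.5%) in the male library. That difference was -2.10 points (-4.69 to 0.475), so its interval included 0. They held 2.16% of all UMIs of the filtered cells in the female and 5.44% in the male library.

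Against the C1q macrophages, the Aldh1a2 Retnla cells differed in many genes. Of 6690 genes with enough counts (at least 20 UMIs in the Aldh1a2 Retnla cells or 50 in the C1q macrophages, in each library), 277 (4.14%) were at least 2-fold higher and 369 (5.52%) at least 2-fold lower in both libraries, on the scale of CPM + 10. These shares come from the contrast that chose the members and only set the background for what follows. The median log2 ratio of all genes tested was -0.03.

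Apart from the gate genes, the higher genes included enzymes, receptors and regulators. Upb1, the enzyme of the last step of pyrimidine breakdown, measured 149.9 CPM (112 to 197) in the female and 132 CPM (102 to 168) in the male Aldh1a2 Retnla cells, against 1.64 and 0.319 CPM in C1q macrophages. Gda, which deaminates guanine, measured 505 and 564 CPM against 39.9 and 40.2 CPM. Olfm1, a secreted glycoprotein, measured 389 and 448 CPM against 20.6 and 31 CPM. Gda was detected in 70.2 and 71.3% and Olfm1 in 69 and 64.4% of the members. Ltb4r1, the receptor for the chemoattractant leukotriene B4, measured 141 and 168 CPM against 5.16 and 4.79 CPM. Fcrls, a scavenger receptor related to Fc receptors, measured 807 CPM (715 to 908) in the female and 762 CPM (687 to 841) in the male Aldh1a2 Retnla cells, against 44.1 and 81.4 CPM, and was detected in 78.6 and 81.2% of the cells. Lyve1-high macrophages carried Fcrls too, at 335 and 430.3 CPM, which is within 2-fold of the members in the male library. H2-DMb2, a chain of the chaperone that loads peptides on MHC class II, measured 288 and 270.3 CPM against 18.1 and 19.2 CPM. These receptors and the chaperone were thus higher than in C1q macrophages in both libraries. H2-DMb2 did not pass 2-fold in both against Cd209a dendritic cells. None of the genes measured in this paragraph was past 2-fold higher than all 4 classes compared below.

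Signalling and scaffold genes were also among the higher genes. Rras2, a Ras-family GTPase, had log2 ratios of 3.34 and 3.54 in the female and male library, and Tiam1, which activates the GTPase Rac, 3.29 and 3.32. Socs6, an inhibitor of cytokine signalling, had log2 ratios of 3.24 and 3.31, and Ahnak, a very large scaffold protein, 3.25 and 3.09. Gfra2, a co-receptor for the neurotrophic factor neurturin, measured 149.9 and 156 CPM against 11.5 and 10.9 CPM. Cd24a, a surface glycoprotein, measured 378 and 314 CPM against 22 and 19.8 CPM, Phlda1 225 and 142 CPM against 10.1 and 8.62 CPM, and the immunoglobulin-like receptor Lilra6 149.9 and 86.8 CPM against 5.40 and 1.92 CPM. Of these genes, Tiam1, Ahnak, Gfra2 and Cd24a were not past 2-fold higher than all 4 classes compared below. Of the 55-base words at the end of H2-DMb2, 12.1% recur in other transcripts, and of those of Lilra6, 2.91% recur in gene models.

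The 15 lowest genes by the naming rule included Apoe, Ms4a7 and Fcgr4. Apoe, the main lipid carrier made by macrophages, measured 2053 CPM (1905 to 2209) in the female and 2780.0 CPM (2637 to 2929) in the male Aldh1a2 Retnla cells, against 26881 and 18825 CPM in C1q macrophages. Ms4a7, a membrane protein of tissue macrophages, measured 54.8 and 67.1 CPM against 846 and 841 CPM. Fcgr4, a receptor for IgG, measured 20.2 and 17.8 CPM against 286 and 286 CPM. These 3 genes were thus lower in both libraries. Cd63, a tetraspanin of late endosomes, measured 86.5 and 109 CPM against 621 and 873 CPM, and Acp5, an acid phosphatase, 51.9 and 37.5 CPM against 399 and 343 CPM. Tgfbr1, a receptor for TGF-beta, measured 57.7 and 37.5 CPM against 528 and 577 CPM, and Pmepa1, a TGF-beta target, 23.1 and 31.6 CPM against 257 and 255 CPM. Hpgds, which makes prostaglandin D2, measured 14.4 and 15.8 CPM against 162 and 189 CPM. The chemokine Cxcl16 had log2 ratios of -2.72 and -3.02, the ribonuclease Rnase4 -3.65 and -2.87 and the DNA sensor Ifi204 -3.36 and -3.18. Zmynd15, Ms4a6b, Lilra5 and Cd300c2 completed the 15 genes lowest by the rule, with log2 ratios between -3.61 (Lilra5, male library) and -2.78 (Cd300c2, male library).

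**Figure D2:**
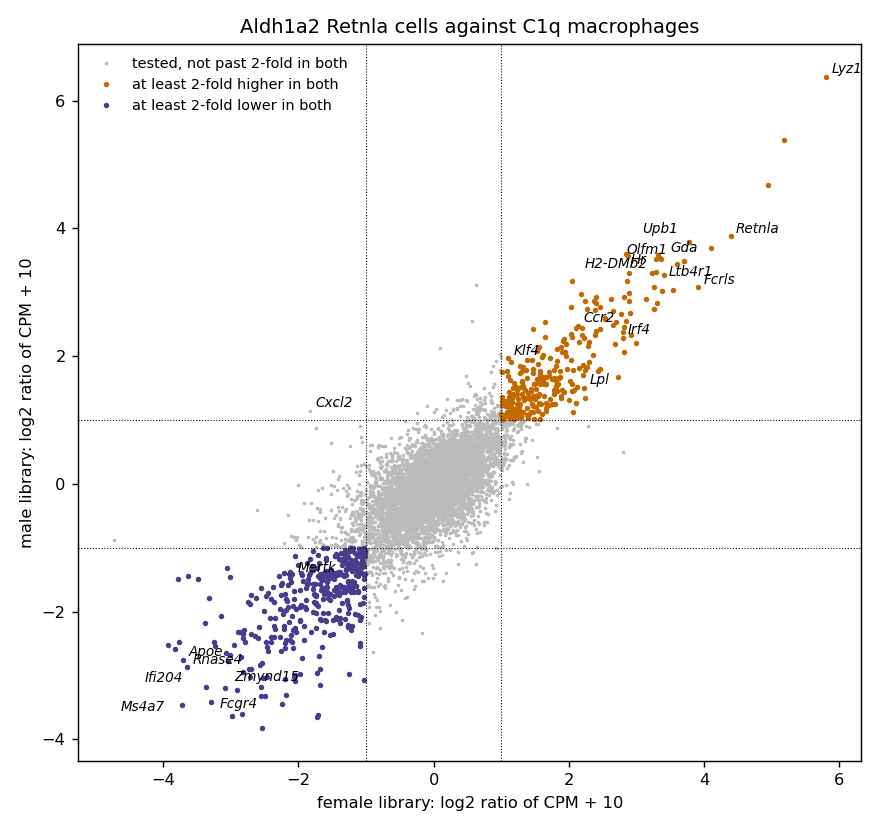
Log2 ratio of CPM + 10 between Aldh1a2 Retnla cells and C1q macrophages in the female library (x axis) and the male library (y axis), 1 point for each of 6690 genes, with dotted lines at 2-fold. The 277 genes higher in both lie at the upper right, led by the gate gene Lyz1, and the 369 lower in both at the lower left, where Ms4a7 and Fcgr4 lie.

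Genes listed here for adrenal macrophages were mostly lower. Of 14 listed genes, all tested, 11 were lower and none was higher, with a median log2 ratio of -2.09. Over all genes tested, 5.52% were lower. The study reported Cx3cr1 on monocyte-derived macrophages and took Timd4 as a marker of embryonic ones. The list thus mixes origins and does not measure residence in the tissue. Cx3cr1, the fractalkine receptor, measured 43.2 and 128 CPM against 712 and 755 CPM. Adgre1, Gas6 and Itgax did not pass 2-fold in both libraries. In a list of genes of small serous-cavity macrophages, 7 of 10 tested were higher and none lower, with a median of 2.42. Retnla and Ear2 among them are gate genes, higher by construction, and they enter this median. The others higher were Cd226, Ccr2, Irf4, Cd209a and Fcrls. Over all genes tested, 4.14% were higher. The list was chosen with earlier results of these data known. Against classical monocytes 8 of 9 tested were higher, Retnla and Ear2 again among them, and none lower. Nearly all genes tested against monocytes, dendritic cells and Lyve1-high macrophages entered through their UMIs in the members, so listed genes low in the members could hardly be counted and nothing is read from these counts. They were 3 higher and 3 lower of 10 against Lyve1-high macrophages, where Retnla, Ccr2, Cd209a and Fcrls passed neither way, and 4 higher and 3 lower of 10 against Cd209a dendritic cells, where Ccr2, Irf4 and Mrc1 passed neither way. Outside the gate genes, Cd226 measured 222 and 215 CPM against 33.8 and 19.5 CPM, Irf4 133 and 134 CPM against 10.6 and 19.5 CPM and Ccr2, the receptor by which monocytes enter tissues, 1127 and 1432 CPM against 248 and 249 CPM. Mrc1, Clec10a and Mgl2 did not pass 2-fold in both. Gata6, the factor of large cavity macrophages, had 1 UMI in each library, and of that list Timd4 and Cd93 were lower and Laptm5 was neither among 3 tested.

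Among transcription factors of myeloid cells, 12 of 24 passed 2-fold in neither direction, Spi1, Cebpa and Zeb2 among them. Of the others, 8 were higher (Irf4, Klf2, Klf4, Bhlhe40, Batf3, Id2, Hif1a and Rbpj) and 4 lower, among them Irf8, Maf and Bhlhe41, and the median log2 ratio of the 24 was 0.34. Bhlhe40, a repressor that limits interleukin 10, measured 179 and 105 CPM against 16.2 and 9.58 CPM. Rbpj, the effector of Notch signalling, measured 476 and 535 CPM against 161 and 199 CPM, and Id2 787 and 817 CPM against 308 and 222 CPM. Maf, a factor of differentiated macrophages, measured 118 and 205 CPM against 576 and 738 CPM.

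Some genes had a large share of their UMIs in the Aldh1a2 Retnla cells. Among 2596 genes with at least 20 UMIs in the members of each library, 28 had at least 20% of their UMIs there in both libraries, while the medians over these genes were 2.63% and 6.10%. Besides the 5 gate genes, Hr led this order. Hr encodes the hairless protein, a co-repressor of nuclear receptors, and 71.1% and 90.2% of its UMIs in the female and male library lay in the members. In C1q macrophages it measured 0.469 and 0.319 CPM, against 92.3 CPM (63.1 to 130.2) in the female and 109 CPM (81.7 to 141) in the male Aldh1a2 Retnla cells. Rem1, a GTPase that regulates calcium channels, followed with 66% and 67.6%, Fcrls with 50.5% and 54.7% and Gfra2 with 39.7% and 58.1%. The growth factor receptor Fgfr1 had 28.7% and 34.5%, the caveolar coat gene Cavin1 30.5% and 33.6% and the secreted neurotrophic factor Ndnf 28.2% and 44%. Most UMIs of these last genes therefore lay in other cells. These genes were looked up after their values were seen, near the head of the order.

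**Figure D3:**
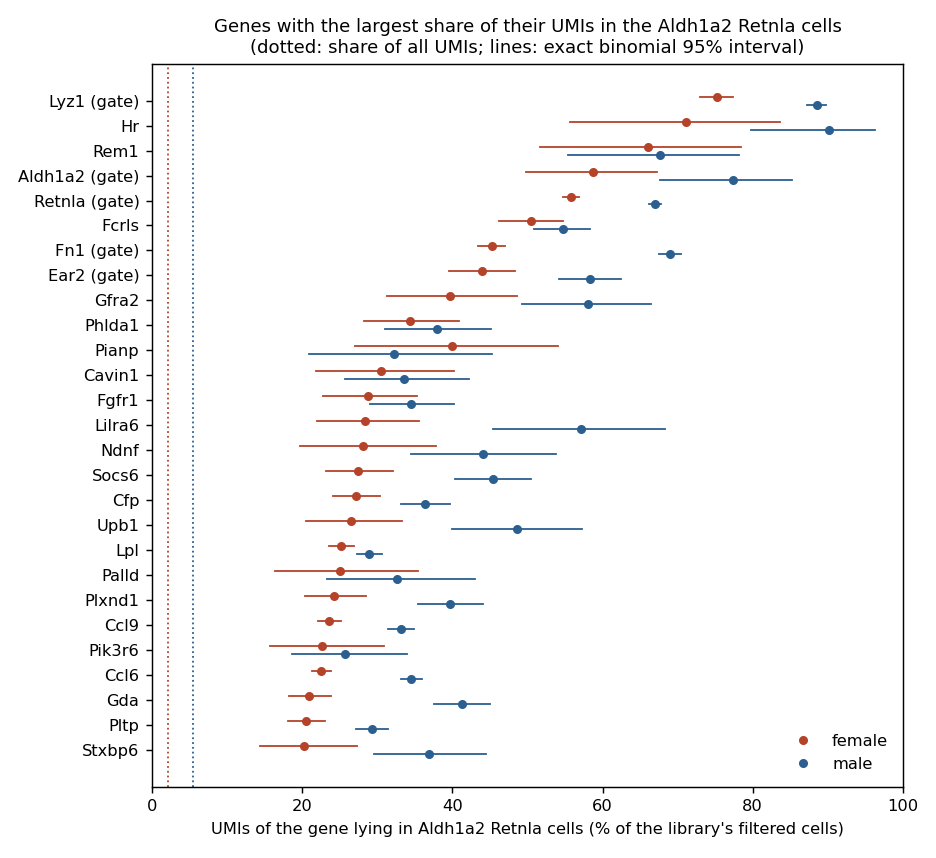
Share of each gene's UMIs that lay in the Aldh1a2 Retnla cells, in percent of the UMIs in all filtered cells of the library, for 27 genes at the head of the order (gene models named Rik left out). Points are libraries, lines exact binomial 95% intervals, and dotted lines the share of all UMIs held by these cells, 2.16% in the female and 5.44% in the male library. Hr stands at 71.1% and 90.2%, among the gate genes.

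Compared with classical monocytes (148 female and 78 male cells with Ly6c2 or Chil3 and little C1q), the Aldh1a2 Retnla cells were low in monocyte genes and high in MHC class II. Of 2693 genes tested, 218 (8.10%) were at least 2-fold higher and 128 (4.75%) at least 2-fold lower in both libraries, with a median log2 ratio of 0.14. Of these genes 2596 entered through their UMIs in the Aldh1a2 Retnla cells, so genes low in them had little chance to be tested, and with a minimum of 1 UMI the counts were 414 and 327. Plac8, abundant in monocytes, measured 34.6 and 69.1 CPM against 5780.1 and 4619 CPM. Hp, which encodes haptoglobin, measured 2.88 and 1.97 CPM against 333 and 298 CPM, Ms4a4c 2.88 and 15.8 CPM against 742 and 532 CPM and Ifi204 8.65 and 11.8 CPM against 397 and 342 CPM. Ly6c2 (49 and 35.5 CPM) and Chil3 (5.77 and 3.95 CPM) were low as well, and both defined the monocyte class. Ccr2 was at a similar level, with 1127 and 1432 CPM against 1307 and 1523 CPM. On the higher side, Fcrls had 0 and 3.11 CPM in monocytes, Rras2 1.78 and 0 CPM and Cd226, an adhesion receptor, 5.34 and 3.11 CPM. Cd2, an adhesion molecule, measured 156 and 148 CPM against 3.56 and 0 CPM, and H2-DMb2 288 and 270.3 CPM against 12.4 and 12.4 CPM. Gzmb, a granzyme of cytotoxic cells, measured 161 and 221 CPM against 5.34 and 9.32 CPM but was found in only 7.14 and 5.94% of the members, and the lower of its log2 ratios in the libraries went from 3.48 to -0.24 once cells with NK genes were left out.

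Of 10 MHC class II presentation genes tested against monocytes, 8 were higher, among them Ciita, Cd74 and H2-Aa, and Ifi30 was lower. The growth factor and cytokine receptors Ifngr1 and Itgal were lower than in monocytes. None of 10 dissociation and stress genes tested passed 2-fold against monocytes.

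Against Cd209a dendritic cells (81 female and 57 male cells with at least 2 Cd209a UMIs), 223 of 2611 genes (8.54%) were higher and 38 (1.46%) lower in both libraries, with a median log2 ratio of 0.33. Here too 2596 of the genes entered through the members, so neither the balance of these counts nor the median describes the cells, and with a minimum of 1 UMI the counts were 438 and 138. Lpl, the lipase that releases fatty acids from lipoproteins, measured 1966 CPM (1822 to 2119.6) in the female and 1608 CPM (1499.5 to 1722) in the male Aldh1a2 Retnla cells, against 32 and 46.6 CPM in dendritic cells. Ecm1, a secreted matrix protein, measured 219 and 329 CPM against 7.99 and 7.18 CPM, and the protease Ctsd 626 and 602 CPM against 55.9 and 53.8 CPM. Cd81, a tetraspanin, measured 646 and 677 CPM against 34.6 and 35.9 CPM. The lower genes beside Cd209a, which defined the class, were Plac8 (860.0 and 506 CPM in dendritic cells), Ms4a6c (104 and 128 CPM against 639 and 567 CPM), Slamf7 (46.1 and 17.8 against 189 and 183 CPM), Clec10a (43.2 and 78.9 against 224 and 298 CPM) and the gut-homing integrin chain Itgb7 (75 and 57.2 against 269 and 240.4 CPM). Upb1 and Olfm1 were not particular to the Aldh1a2 Retnla cells, since dendritic cells measured 184 and 183 CPM and 349 and 441 CPM. The NK genes Gzma (718 and 304 against 24 and 7.18 CPM) and Nkg7 (453 and 124 against 5.33 and 3.59 CPM) were also among the higher genes, but with NK-gene cells left out the lower of their log2 ratios in the libraries were 0.66 and 0.45, short of 2-fold.

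The Lyve1-high macrophages (52 female and 117 male cells with at least 5 UMIs of Lyve1, Folr2, Cbr2 and Fcna, part of the C1q macrophages) also carried Retnla, at 10441 and 7882 CPM against 13352 and 17353 CPM in the Aldh1a2 Retnla cells. After thinning to 1000 UMIs a cell their median was 2 and 2.5 Retnla UMIs, and 71.4 and 70.9% of them held 10 or fewer. The members, chosen for Retnla, had medians of 12 and 13, with 44.3 and 39.2% at 10 or fewer. Of 2624 genes, 157 (5.98%) were higher and 103 (3.93%) lower in the Aldh1a2 Retnla cells, with a median log2 ratio of 0.18. As 2596 of the genes entered through the members, the balance of these counts follows the filter, and with a minimum of 1 UMI it turned to 268 higher and 413 lower. Ltb4r1 and Hr had no UMI in the Lyve1-high macrophages of either library. Upb1 measured 0 and 3.12 CPM there, Olfm1 14.6 and 56.1 CPM, H2-DMb2 14.6 and 28.1 CPM and the calcium channel gene Ryr1 0 and 3.12 CPM, against 89.4 and 146 CPM of Ryr1 in the Aldh1a2 Retnla cells. The lower genes included the lectins Cd209f (5.77 and 7.89 against 423 and 814 CPM) and Cd209g (0 and 5.92 against 287 and 471 CPM), Igfbp4, which binds insulin-like growth factors (20.2 and 47.4 against 603 and 1263 CPM), Ltc4s, which makes leukotriene C4 (11.5 and 21.7 against 408 and 795 CPM), and Rnase4 (5.77 and 15.8 against 365 and 592 CPM). The map of levels by class sets the summed levels side by side.

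**Figure D4:**
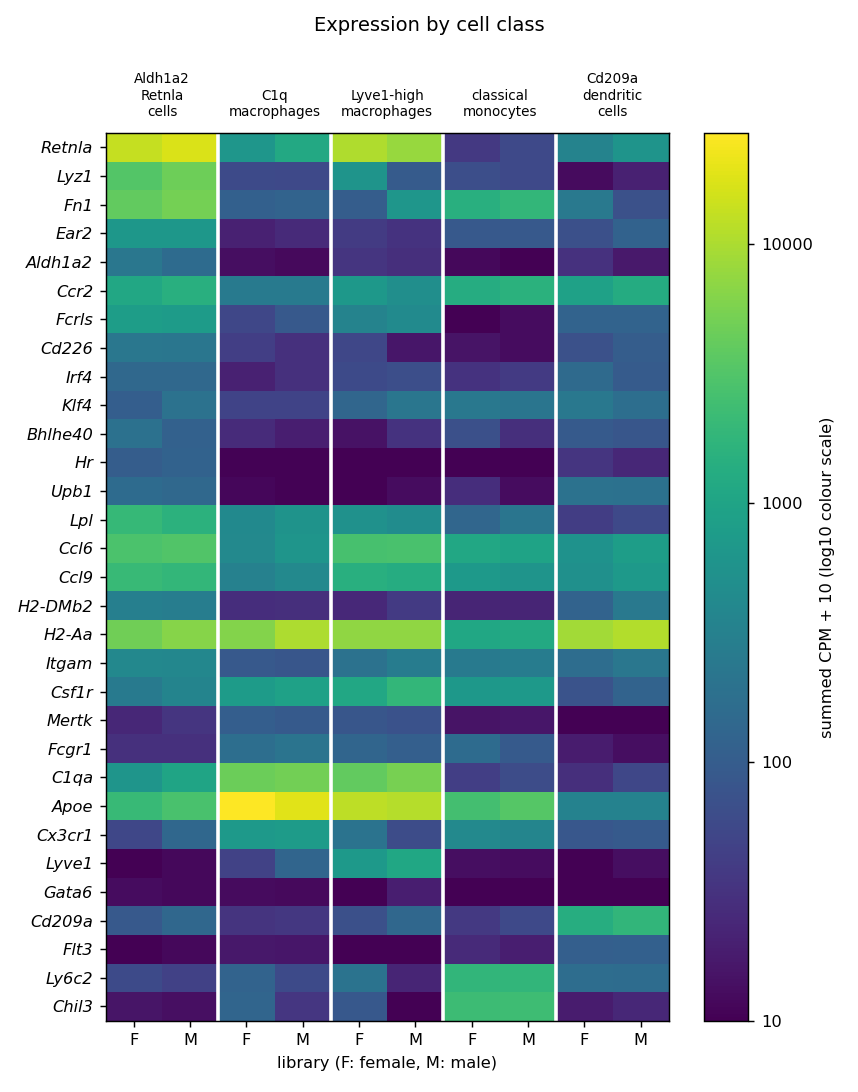
Summed CPM + 10 of single genes (rows) in 5 cell classes, female (F) and male (M) library side by side, on a log10 colour scale from dark (10) to bright. Retnla is bright in the Aldh1a2 Retnla cells and, as a sum over cells, in the Lyve1-high macrophages, Hr peaks in the Aldh1a2 Retnla cells, Fcrls is bright in them and next in the Lyve1-high macrophages, C1qa is bright in the C1q and Lyve1-high macrophages, and Apoe peaks in the C1q macrophages.

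Across all 4 classes, 26 of 2598 genes were at least 2-fold higher in the Aldh1a2 Retnla cells in both libraries, and 3 were lower. Of the 2598 genes, 2596 entered through the members, so few genes low in them could be counted. Leaving out gate genes and Rik models, 20 remained: Rem1, Tmem154, Cd2, Cnn3, Tec, Sept11, Chn2, Ndnf, Plxnd1, Lilra6, Rras2, Lpl, Phlda1, Id2, Pfkp, Hr, Lemd2, Kank3, Socs6 and Cd226. The 4 comparisons share the Aldh1a2 Retnla cells and the Lyve1-high macrophages are part of the C1q macrophages, so they are not independent. Plxnd1, a receptor for semaphorins, measured 311 and 410.4 CPM against at most 122 CPM in any of the 4 classes. Of the 26 genes, 15 had RefSeq promoter windows, 18 in all, of which 0 held the STAT6 letters, 3 the C/EBP letters, 3 AGGTCA and 4 GAGGAA.

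Most genes of the retinoid pathway had too few UMIs to be tested. Of 26 listed genes, 6 were tested against C1q macrophages, and Aldh1a2, which the rule used, was the 1 that passed 2-fold in both libraries. Rara, the retinoic acid receptor alpha, measured 104 and 39.5 CPM against 13.4 and 16.3 CPM. Dhrs3, which turns retinal back to retinol, measured 147 and 158 CPM against 148 and 142 CPM. Dhrs3 was higher than in monocytes (8.89 and 37.3 CPM) and Cd209a dendritic cells (26.6 and 46.6 CPM) and lower than in Lyve1-high macrophages (389 and 362 CPM), past 2-fold in both libraries each time. Rxra measured 14.4 and 33.5 CPM, and Stra6, the uptake receptor for retinol, had no UMI. Between the libraries, Rara was past 2-fold higher in the female. Aldh1a2 itself measured 222 CPM (175 to 277) in the female and 148 CPM (116 to 185) in the male Aldh1a2 Retnla cells, against 24.3 and 18.7 CPM in Lyve1-high macrophages and 21.3 and 7.18 CPM in dendritic cells.

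Genes of alternative activation went both ways against C1q macrophages. Of 15 tested, the gate gene Retnla, Irf4, Klf4 and Cd200r1 were higher and Chil3 and Il13ra1 lower, with a median log2 ratio of -0.13. Over all genes tested, 4.14% were higher and 5.52% lower. The list as a group was not tested. Il4ra, a chain of the interleukin 4 receptor, measured 23.1 and 11.8 CPM against 47.4 and 54.9 CPM. Against Lyve1-high macrophages 6 of 11 were lower (Mrc1, Cd163, Clec10a, Mgl2, Ccl24 and Cd36) and Irf4 was higher. Against classical monocytes 7 of the 10 tested of 24 were higher (the gate gene Retnla, Mrc1, Mgl2, Irf4, Ccl24, Cd36 and Cd200r1) and Chil3, a gene of the monocyte rule, was lower. Against Cd209a dendritic cells 4 of 10 were higher, Retnla among them, and 2 lower. In these 3 comparisons genes entered mostly through the members, so the counts are given as a description only.

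Chemokines and their receptors differed in both directions. Ccl6 measured 2837 and 3149 CPM against 399 and 598 CPM and Ccl9 2041 and 1853 CPM against 311 and 396 CPM, each in over 90% of the members. These were the 2 ligands higher among 13 tested, and 6 were lower (Ccl3, Ccl7, Ccl12, Cxcl14, Cxcl16 and Pf4). Of 11 receptors tested, Ccr2 and the prostaglandin receptor Ptger2 were higher and Cx3cr1, Cxcr4, Cmklr1, C5ar1, C3ar1 and S1pr1 lower. Of 9 complement genes, 7 were lower, among them the C1q genes that defined the comparison class, and Cfp, which encodes properdin and stabilises the complement convertase, was higher with 629 and 629 CPM against 74.1 and 117 CPM.

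Most lipid and lysosomal genes were lower or within 2-fold. Of 19 tested, Lpl was higher, at 1966 and 1608 CPM against 412 and 559 CPM, and 8 were lower, among them Trem2, Apoe, Abca1 and Lipa. Of 14 coagulation and matrix genes, Plaur and the gate gene Fn1 were higher and Col14a1, Mmp12 and Mmp13 lower. F13a1, the clotting factor XIII subunit of macrophages, measured 427 and 574 CPM against 166 and 288 CPM and 1361 and 2345 CPM in Lyve1-high macrophages. Of 4 ribonucleases tested, the gate gene Ear2 was the 1 higher and Rnase4 and Rnaset2a lower. Lyz2, the lysozyme of all macrophages, measured 9316 and 10074 CPM against 8133 and 5976 CPM and did not pass 2-fold in both. Of 9 growth factors and cytokines tested, 3 were lower (Igf1, Pdgfb and Pdgfa). Of 17 receptors for such factors, Itgam was higher and 7 were lower, among them Csf1r and Tgfbr2.

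Dissociation and stress genes were partly higher than in C1q macrophages, with 5 of 14 (Fos, Fosb, Junb, Egr1 and Zfp36) past 2-fold and none lower. Fos measured 412 and 912 CPM against 152 and 229.9 CPM, and 962 and 1424 CPM in monocytes and 607 and 675 CPM in dendritic cells. The part of the tissue digestion in this was not tested. The adrenal endocrine genes, a gauge of free RNA from the gland, were not higher in any of 6 tested, with Star at 37.5 and 21.7 CPM against 49 and 60 CPM and Cyp11b1 lower. Proliferation genes were rare. A Mki67 or Top2a UMI was found in 6 of 84 female (7.14%, 2.67 to 14.9%) and 9 of 101 male members (8.91%, 4.16 to 16.2%), and in 4.65% and 3.34% of C1q macrophages, with intervals of 3.38 to 6.21% and 2.25 to 4.76% that overlapped those of the members in both libraries. These shares were not adjusted for depth.

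Spread among the members was measured per gene. In cells thinned to 1000 UMIs, 31 of 1290 genes had a Fano factor (variance over mean) above 2 (counting alone gives about 1) in both libraries, and the median Fano factor was 1.09 and 1.08. Retnla had the highest Fano factors by the smaller of the libraries, 14.3 and 15.7, and Lyz1 had 5.73 and 5.72, but the rule used the counts of both genes to choose the members. Among genes outside the rule, the highest by the same measure were Gm42418 (26.6 and 9.28), Malat1 (7.76 and 19), Apoe (5.73 and 15.4) and Ccl5 (6.88 and 5.36). Values above 2 were found also for C1qa (4.44 and 4.10) and Gzma (11 and 3.88). C1q sums ran without a gap at low values, in counts not scaled for depth. At least 5 C1q UMIs were present in 24 of 84 female (28.6%) and 30 of 101 male members (29.7%), and none in 27 (32.1%) and 25 (24.8%). The highest C1q sum in a cell was 114 in the female and 233 in the male library. Per 1000 UMIs, the median was 0 and 0 C1q UMIs in the members, 13 and 14 in C1q macrophages and 0 and 0 in monocytes.

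MHC class II was present in every member, with at least 9 UMIs in a female and 7 in a male cell. Cd74 and the chains H2-Aa, H2-Ab1 and H2-Eb1, which present peptides to helper T cells, together had a median of 23 and 31 UMIs per 1000, against 28.5 and 47 in C1q macrophages, 43 and 48 in dendritic cells and 1 and 1 in monocytes. Only 10.1 and 2.06% of the female and male members had 10 or fewer, against 29.4 and 11% of C1q macrophages. The spread from the 10th to the 90th percentile was 10.6 to 40.2 UMIs in the female and 14.6 to 51.4 in the male members, narrower than the 1 to 72 and 8 to 84 of the C1q macrophages. Of 12 presentation genes tested against C1q macrophages, H2-DMb2 was higher and Ctss and Cd86 lower.

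**Figure D5:**
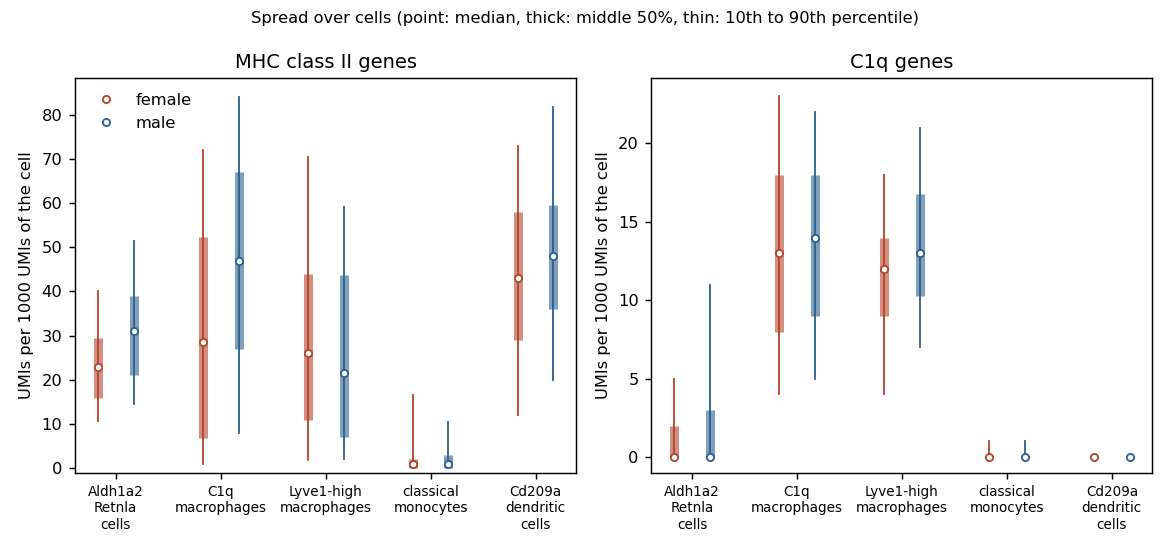
MHC class II UMIs (left) and C1q UMIs (right) per 1000 UMIs of a cell, in 5 classes and both libraries, after thinning. Points are medians over cells, thick bars the middle 50% and thin lines the 10th to 90th percentile. The Aldh1a2 Retnla cells have MHC class II medians of 23 and 31 and C1q medians of 0.

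Between the sexes, few genes of the Aldh1a2 Retnla cells passed 2-fold. Of 3788 genes with at least 20 UMIs in either library's members, 50 (1.32%) were higher in the female library by 2-fold or more and 79 (2.09%) lower, and with 1 library a sex these are sizes only. None of the 5 gate genes passed 2-fold. Retnla measured 13352 CPM in the female and 17353 CPM in the male library, a ratio of 0.769 (0.742 to 0.797), Lyz1 0.698 (0.650 to 0.749) as a ratio of female to male, Fn1 0.780 and Ear2 0.971. Aldh1a2 went the other way, with a ratio of 1.5 (1.08 to 2.09). None of 20 transcription factors, 10 MHC class II genes or 10 small cavity genes tested passed 2-fold either way.

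The 5 genes highest in female relative to male members by the naming rule were Xcl1, Ccl4, Ccl5, Klre1 and Ms4a4b, and most of their UMIs lay in few members. The chemokine Xcl1 measured 703 CPM in the female and 82.9 CPM in the male library, a ratio of 8.49 (6.10 to 12.1), and 5 female cells held 94.7% of its UMIs. Ccl5 measured 1681 CPM in the female and 393 CPM in the male library, a ratio of 4.28 (3.64 to 5.05), with 81% in 5 cells. Ccl5, a chemokine of T and NK cells, was more widely detected than this share shows, with a UMI in 41 of 84 female and 25 of 101 male members, and it measured 1008 and 138 CPM in the female and male B cells. For Ccl4, Klre1 and Ms4a4b these shares were 97%, 73.3% and 87.5%. With NK-gene cells left out, the count of genes higher in the female fell from 50 to 21, Ccl4 turned to a log2 ratio of -0.81, and Xcl1 (0.71), Klre1 (0.60) and Ms4a4b (0.22) no longer passed 2-fold. Ccl5 stayed past 2-fold in that setting and in every other one tried.

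The 5 genes lowest in female relative to male members by the naming rule were Cxcl2, Hspa1a, Il1rn, Il1b and Tcf4. Il1rn, the secreted antagonist of interleukin 1, measured 49 CPM in the female and 162 CPM in the male library, a ratio of 0.303 (0.168 to 0.515), against 7.04 and 4.15 CPM in C1q macrophages, and its UMIs lay in 8 female and 23 male members. With a mitochondrial ceiling of 5% its log2 ratio was -0.92, short of 2-fold. The chemokine Cxcl2 measured 14.4 CPM in the female and 107 CPM in the male library, a ratio of 0.135 (0.0422 to 0.336), and the cytokine Il1b 23.1 CPM in the female and 84.8 CPM in the male library, a ratio of 0.272 (0.110 to 0.585). These genes lay in few cells, since 5 male members held 70.7% of the Il1rn UMIs and 90.7% of those of Il1b. Hspa1a, a heat shock protein, measured 17.3 CPM in the female and 90.8 CPM in the male library, a ratio of 0.191 (0.0665 to 0.447), and the transcription factor Tcf4 25.9 CPM in the female and 86.8 CPM in the male library, a ratio of 0.299 (0.128 to 0.620). With a pseudocount of 50 CPM, Il1b (-0.88) and Tcf4 (-0.85) fell short of 2-fold. Of 13 dissociation and stress genes, Fos, Jun, Hspa1a and Hspa1b were lower in the female library and none was higher. In monocytes Hspa1a was lower in the female library too, with 16 and 115 CPM in the female and male library. Fos in monocytes measured 962 and 1424 CPM, lower in the female by less than 2-fold. In Cd209a dendritic cells Fos was at a similar level in both libraries. Whether handling of the 2 preparations has a part in this was not tested.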

How the data were processed

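Single-cell counts of adrenal CD45+ cells were analysed in 1 female and 1 male library, at 16218309 and 9512670 UMIs. The deposited counts are whole UMIs per gene and barcode, not normalised, which the authors made with Cell Ranger 4.0.0 on mm10 from 55-base cDNA reads (Chromium 3' kit 3.1). Barcodes with at least 200 genes and at most 15% mitochondrial UMIs were kept. The ceiling of 1.2% given in the study's methods would leave 327 female and 359 male cells, with 22 and 45 members, counted as a percent of UMIs. That is far fewer cells than the study kept after its filters, so its ceiling did not act as a percent of these UMIs.

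UMIs were summed per library and cell class, scaled to CPM, and called 2-fold on CPM + 10 in both libraries. Intervals at 95% cover counting error only and are exact Poisson for levels, exact binomial (Clopper-Pearson) for shares, Newcombe's for differences of shares, and binomial conditional on the total for ratios. UMIs per 1000, thinned shares and Fano factors used cells drawn down to 1000 UMIs, which left out 5 female and 4 male members. Monocytes had at least 3 UMIs of Ly6c2 and Chil3 together, at least 3 of Lyz2, at most 10 of S100a8 and S100a9, and, like the dendritic cells, at most 2 of C1q, at most 2 of Nkg7 and none of Cd79a or Cd3e. B and T cells had at least 2 UMIs of Cd79a or of Cd3e, none of the other, and at most 2 each of C1q and Lyz2. Doublets were not removed in the main values, and removal by the highest Scrublet scores (scanpy 1.11.5) was an alternative. Named genes were the 15 highest and 15 lowest against C1q macrophages and 6 each against the other classes. These were ranked by the smaller log2 ratio of the libraries. Between sexes they were the 5 with the highest and the 5 with the lowest ratio of female to male. Those had at least 50 UMIs in the members of both libraries together. Gate genes and unnamed gene models were left out throughout. Genes named besides these come from the 21 gene lists and 18 marker sets or were named after their values were seen. Some genes of these lists are not reported here. The members and lists were chosen with earlier results of these data known. No test was made, since measured values chose the members and each sex has 1 library. The scripts were tested on simulated data. Python 3.11.15, numpy 2.4.6, pandas 2.3.3 and scipy 1.17.1 were used.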

Additional observations from a re-analysis of the deposited data

Results flagged for a closer look

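Genes whose ratio passed 2-fold in opposite directions in the female and male library are given here, with log2 ratios of CPM + 10, and the difference between the libraries was not tested. Against C1q macrophages, Cxcl2 had -1.84 in the female and 1.14 in the male library, and Klra4, an NK receptor gene, -1.45 and 1.24. Against Cd209a dendritic cells, Fabp5, a fatty acid binding protein, had -1.57 and 1.61, and Irf8, a transcription factor of dendritic cells and monocytes, -1.58 and 1.44. These were 2 of 6690 and 2 of 2611 genes. No gene did so against monocytes or Lyve1-high macrophages, with 0 of 2693 and 0 of 2624.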

How the results depend on the processing

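Of 204 alternative values for shares, their differences and counts of genes, 157 stayed within the limit set for each (the interval of a share, 1.5 times a count), and none changed sign. Of 1064 values for named genes, 1051 kept direction and 2-fold size. Changing the Retnla limit to 3 or 10, the companion limit to 6, or scaling the UMIs to 5000 a cell moved no value past these limits. Leaving out cells with NK genes gave shares of 3.09% (female) and 5.16% (male) of cells, since other cells were removed too, and 21 genes higher in the female. In the same setting Gzmb against monocytes reversed to -0.24 and Ccl4 between sexes to -0.81. With the highest Scrublet scores removed, 25 genes were higher in the female, Gzmb fell short at 0.22, Ccl4 at 0.01 and Ms4a4b at 0.94. Without members that held 5 or more C1q UMIs, an alternative chosen after seeing the data, the shares were 1.57% and 2.84% of cells and 6.09% and 7.56% of macrophages, by construction. A pseudocount of 50 CPM gave 130 genes higher and 128 lower than C1q macrophages, 122 higher than monocytes, 85 higher than dendritic cells, 79 higher than Lyve1-high macrophages, and 18 higher and 5 lower in the female, with Il1b at -0.88 and Tcf4 at -0.85. A pseudocount of 1 CPM gave 554 lower than C1q macrophages and 148 lower in the female. A minimum of 1 UMI gave 414 and 327 genes higher and lower than monocytes, 438 and 138 than dendritic cells, 268 and 413 than Lyve1-high macrophages and 268 and 265 in the female. A minimum of 100 UMIs gave 153 higher than C1q macrophages, 53 and 55 against monocytes, 51 and 24 against dendritic cells, 42 and 48 against Lyve1-high macrophages and 7 and 2 between sexes. Library totals without gate, mitochondrial and ribosomal protein genes gave 69 lower than dendritic cells, and means over cells 144 lower in the female. A mitochondrial ceiling of 5% gave 64 lower than Lyve1-high macrophages and put Il1rn at -0.92. The female library alone gave 567 lower than C1q macrophages, 335 higher than monocytes, 434 higher and 66 lower than dendritic cells and 277 higher than Lyve1-high macrophages. The male library alone gave 582 lower than C1q macrophages, 357 higher and 59 lower than dendritic cells, and 281 higher and 169 lower than Lyve1-high macrophages. These single-library counts were also added after seeing the data. Other than where a setting removed cells or genes by construction, the cause was not tested. No paired analysis was possible because each sex has 1 library and no test was made. With 84 and 101 members, genes under 20 UMIs in them were compared with another class only where that class held at least 50, and a lower level of such genes rests on few UMIs.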
